A study of Homo sapiens with 4 samples.

Results

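Cytosolic ribosomal protein mRNAs were followed through the peak lists of an RNA immunoprecipitation (RIP-seq) of IGF2BP3 from OE-19 cells. Members were the protein-coding genes of GENCODE release 44 whose symbol starts with RPL, RPS or RPLP and a digit, or with RPSA, without the kinases whose symbol starts with RPS6K. This gave 92 of 20046 protein-coding genes. Of the 92, 77 encode cytosolic ribosomal proteins proper, 46 of the large subunit and 31 of the small one. The other 15 are paralogs, readthrough genes such as RPS10-NUDT3, and RPS19BP1, which encodes a partner of a ribosomal protein and no ribosomal protein itself, and these were counted apart. Setting the paralogs apart was a choice and does not show that they encode no cytosolic ribosomal protein. The label of the group is used here for the 77 genes.

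OE-19 is an established line of adenocarcinoma of the esophagogastric junction. The series held 4 samples, all of OE-19 cells grown in serum, for which the labels name no treatment or genotype, with 2 IGF2BP3 immunoprecipitates (replicates 1 and 2, anti-IGF2BP3) and 2 inputs without an antibody. The labels say that the cells were fixed with UV light, while the methods of the study name no fixation for the RIP. Nothing in the labels says whether the replicates came from separate cultures. Only the immunoprecipitates had peak lists used here, and each list was called on 1 sample, so the lists carry neither read depth nor the level of any mRNA. The lists held 44622 and 42723 peaks, of which 42720 and 41066 had their summit in an annotated exon. Among marker genes, CDH1 (an epithelial cadherin) had 4 and 8 summits in replicates 1 and 2, whereas EPCAM, KRT7, KRT8, KRT18, KRT19 and ERBB2 had 0 in both. The blood and endothelial genes PTPRC, CD3E and PECAM1 had 0, and COL1A1 of fibroblasts had 0 and 5. Peak presence therefore did not serve to check the cell type. IGF2BP3 itself had 14 and 12 exonic summits.

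Each cytosolic ribosome is built from ribosomal RNA and about one copy of each ribosomal protein, and growing cells keep the mRNAs of these proteins short, abundant and in balance. Most begin with a run of pyrimidines at the very 5′ end, the 5′ terminal oligopyrimidine (TOP) tract, through which the kinase mTOR and the RNA-binding protein LARP1 control their translation. IGF2BP3 is an RNA-binding protein of the KH domain family that is known for stabilizing mRNAs, among them m6A-modified ones. Ribosomal protein genes have also left many processed pseudogenes, copies of their spliced mRNA inserted elsewhere in the genome.

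The central result was an absence. No cytosolic ribosomal protein gene had an exonic summit in both replicates (0 of 77), whereas 28.0% of all protein-coding genes did. In either replicate, 1 of 77 had one, RPL37, against 36.2% of all protein-coding genes. Replicate 1 gave 0 of 77 and replicate 2 gave 1 of 77. The coding sequence of these 77 genes held 0 summits in both lists. Over all 92 members, 1 gene had summits in both replicates, 1 in replicate 2 alone and 90 in neither. Among the 15 counted apart, only RPS10-NUDT3 had any, and RPL3L, RPL7L1, RPL10L, RPL22L1, RPL26L1, RPL36AL, RPL39L, RPS27L, RPSA2, RPS19BP1, 2 paralogs of RPS4X and the readthrough genes RPL17-C18orf32 and RPL36A-HNRNPH2 had none. These are counts over a list chosen with earlier results known, and no test between the list and other genes was run. The lists hold only peaks past the limit of the caller. A gene without a summit thus lacked a called peak, which does not show that it was unbound. Only 9.78% of peaks in replicate 1 and 7.47% in replicate 2 had a q (p after correction by the caller) of about 0.05 or less. Most peaks behind these counts thus had a higher q.

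In the large subunit, 45 of 46 genes had no summit in either replicate. Among them were RPL3, RPL4, RPL5, RPL6, RPL7, RPL7A, RPL8, RPL10, RPL11, RPL13, RPL14, RPL15, RPL21, RPL22, RPL23A, RPL27A, RPL28, RPL31, RPL38, RPL39 and RPL41, and RPLP0, RPLP1 and RPLP2 of the acidic stalk. In the small subunit all 31 genes were without one, among them RPS2, RPS3, RPS4X, RPS6, RPS10, RPS14, RPS19, RPS21, RPS23, RPS26, RPS27, RPS27A, RPS28 and RPSA. RPS6, the substrate of the S6 kinases, and RPL5 and RPL11, which bind MDM2 when ribosome assembly is disturbed, were thus among the genes without a called peak. FAU and RACK1, ribosomal protein genes with other symbols, also had 0 summits in both lists.

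Coding sequences are shown for what they hold of copied and motif sequence. RPL41 has the shortest coding sequence of all members, 78 nt on chromosome 12 (GENCODE 44). It is shown with the bases in capitals that recur in the window around a peak summit described further on.
RPL41: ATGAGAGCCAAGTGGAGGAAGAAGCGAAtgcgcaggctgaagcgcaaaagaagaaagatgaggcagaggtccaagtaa
The word TGGAC, written as DNA and holding the m6A core, was looked for on the coding strand and found in the coding sequence of 42 of 77 genes, or 54.5%, compared with 81.1% of all protein-coding genes, which have longer coding sequences. Per kb of coding sequence there were 1.39 sites in the 77 genes and 1.72 over all protein-coding genes. RPL6, of the large subunit, had the most, with 3 sites, and RPS6 had 2. These sites are shown with TGGAC in capitals, 31 nt each, the first base given as its position in the coding sequence.
RPL6 from position 449: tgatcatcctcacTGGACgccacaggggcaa
RPL6 from position 515: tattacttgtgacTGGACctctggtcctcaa
RPL6 from position 745: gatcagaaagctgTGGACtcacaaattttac
RPS6 from position 40: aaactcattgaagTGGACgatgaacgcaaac
RPS6 from position 353: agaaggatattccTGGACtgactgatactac
None of these sites lay under a summit, since neither gene had one. GGAC, with the TGGAC sites included, occurred at 3.94 sites per kb in the 77 genes and 4.95 over all genes, and the CA-rich word ACACA at 0.809 and 1.07. These are counts of letters and do not show binding or methylation.

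Ribosomal protein mRNAs are short, and short mRNAs had few summits in general. The canonical mRNAs of the 77 genes had a median length of 785 nt (from 295 to 7573 nt) and a median coding sequence of 459 nt, against medians of 2885 and 1272 nt over all protein-coding genes. All genes were therefore sorted by mRNA length. Under 500 nt, 0 of 9 ribosomal protein genes and 3.92% of all protein-coding genes had a summit in both replicates. From 500 to under 1000 nt, the class that held the most ribosomal protein genes, the values were 0 of 35 and 3.51%. From 1000 to under 1500 nt they were 0 of 16 and 5.21%. In these short classes the count of 0 thus stood beside a background of a few percent.

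The longer classes gave a wider gap. From 1500 to under 3000 nt, 0 of 12 ribosomal protein genes had a summit in both replicates against 15.7% of all genes, and from 3000 nt upwards 0 of 5 against 46.3%. With the shares of all genes in the same length classes, 6.61 of the 77 would have had a summit in both replicates and 10.3 in either, where 0 and 1 did. Classes of coding length, added after the data were seen, gave 9.75 and 15.2. Length here is that of the canonical transcript, and the lists do not show which transcript of a gene the cells held. The gap in the longer classes therefore depends on the annotated 3′ UTRs. These counts take no account of mRNA level, which the lists do not hold. The part of length in the absence was not tested beyond this sorting.

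**Figure D1:**
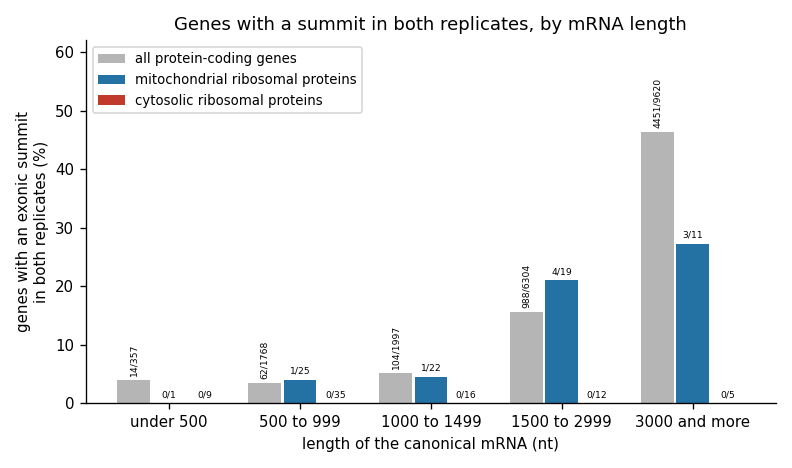
Percentage of genes with an exonic summit in both replicates, by length of the canonical mRNA in nt, for all protein-coding genes (grey), mitochondrial ribosomal protein genes (blue) and the 77 cytosolic ribosomal protein genes (red), with counts above the bars. The red bars are at 0 in all 5 classes, while the grey bars lie between 3.51% and 46.3%.

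**Figure D2:**
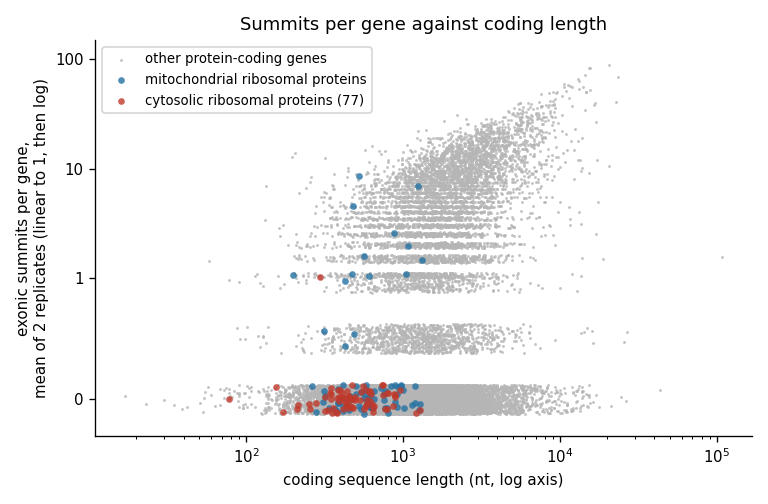
Exonic summits per gene (mean of 2 replicates, spread slightly up and down so that points can be seen; linear axis to 1, then log) against coding length in nt (log axis). The 77 cytosolic ribosomal protein genes (red) lie at 0 except RPL37, while mitochondrial ribosomal protein genes (blue) go up to MRPS25, with 8 and 9 summits, and other genes (grey) go higher.

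The members with long canonical mRNAs owe their length to the 3′ UTR. RPS23 has a 3′ UTR of 2789 nt, RPL28 one of 3753 nt, RPL27A one of 4066 nt and RPL14 one of 6355 nt, and each had 0 summits in both replicates. RPL7L1 (4499 nt) and RPS27L (6110 nt), both paralogs, had 0 as well. Coding length in the 5 long ribosomal protein genes proper, RPL37 included, was 648 nt or less.

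RPL37 (ENSG00000145592.14, chromosome 5, 40825262 to 40835222, minus strand, GRCh38) encodes a zinc-binding protein of the large subunit. It had 0 summits in replicate 1 and 2 in replicate 2, so the replicates did not give the same answer. Both lay in exon 4, in the 3′ UTR of the 7573 nt canonical transcript, 4587 and 5458 nt past the stop codon and thus far from the 294 nt coding sequence. The nearer peak (chr5:40827771-40827930) had a fold enrichment of 3.42, which is how far the RIP reads piled up over the level the caller took for the surroundings. Its p was 0.000419 before correction and its q, after correction by the caller, was 1. The farther peak (chr5:40826785-40827048) had a fold of 2.75 and likewise a q of 1. Neither overlapped a peak of replicate 1. Among the highest folds per protein-coding gene with a summit, 3.42 stood at percentile 51.9 in replicate 2.

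RPS10-NUDT3 (ENSG00000270800.4, chromosome 6, 34284887 to 34426071, minus strand) is a readthrough gene that joins RPS10 to its neighbour NUDT3, a nucleotide hydrolase gene. It was the sole member with summits in both replicates, 4 in replicate 1 and 2 in replicate 2. Every one of these summits lay in exon 9, which is also an exon of NUDT3, and RPS10 itself had 0. All but 2 of them also lay in an exon of a further gene, ENSG00000225339. The highest fold was 4.08 in replicate 1 (q = 0.0401 from the caller, chr6:34284741-34285649) and 3.59 in replicate 2 (q = 0.408, chr6:34285017-34287190). These peaks overlapped, and their summits lay 3719 and 3721 nt past the stop codon. The remaining summits of replicate 1 had folds of 3.18, 2.83 and 2.77, and that of replicate 2 had 3.40. Of all 6, 5 lay in the 3′ UTR and 1, in replicate 1, in the coding sequence 80 nt before its end. Over both genes with summits, 5 of 8 peaks (62.5%) had an overlapping peak in the list of the other replicate, next to 60.8% and 64.6% of all exonic peaks in replicates 1 and 2. The peaks of RPS10-NUDT3 cannot be told apart from peaks of NUDT3, so that no peak of the lists could be given to RPS10.

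**Figure D3:**
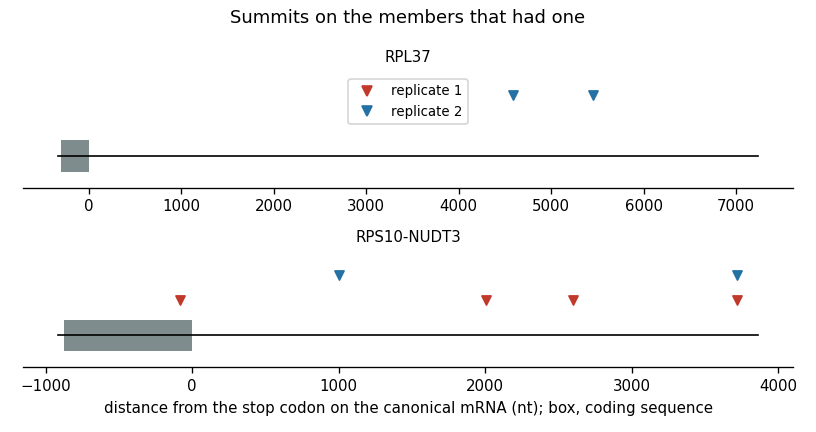
Summits on RPL37 (above) and RPS10-NUDT3 (below), placed by distance in nt from the stop codon on the canonical mRNA, with the line showing the whole mRNA and the box its coding sequence. Triangles are summits of replicate 1 (red) and replicate 2 (blue). All but 1 lie in the 3′ UTR, and in RPL37 all are of replicate 2.

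Summits also fell within the bounds of 3 further ribosomal protein genes without touching their exons. RPL4 spanned 5 summits in replicate 1 and 4 in replicate 2, RPL27A 5 and 5, and RPL31 1 and 1. Each of them lay in an exon of an overlapping gene, ZWILCH for RPL4, DENND2B for RPL27A and TBC1D8 for RPL31. These neighbours lie on the opposite strand, and since the lists give no strand, the gene that the reads came from was not determined. Within 10 kb, 21 of 77 ribosomal protein genes had a summit in replicate 1, 20 in replicate 2 and 16 in both. That was 27.3% and 26.0% per replicate, against 44.5% and 43.1% of all protein-coding genes, which include those with a summit of their own. The median distance to the nearest summit was 27.3 and 24.9 kb, against 17.6 and 20.2 kb.

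Ribosomal protein sequence is also present in many copies. GENCODE 44 names 1588 pseudogenes after the 77 genes, with a median of 14 per gene and 133 for RPL21. Of all 50-base words in a coding sequence, a median of 48.8% over the 77 genes occurred exactly elsewhere on the chromosomes of hg38. In 37 genes the share was above 50%, and in RPL21, RPL36A, RPL39, RPL41, RPS10, RPS26, RPS27 and RPS28 it was 100%. For 14 genes the share was under 10%, and 0 of these 14 had a summit in either replicate. At the shares of all genes in the same classes of mRNA length, 1.94 of the 14 would have had one, so that the count of 0 is near the background for short mRNAs. Of the other 63 genes 1 had a summit, where 8.38 would have at those shares. Among the 14 genes under 10% were RPL38 with 0%, RPLP2 with 0.334%, RPL35A, RPS21, RPS19, RPL36, RPL30 and, at 8.77%, RPL28. How the aligner placed reads with several matches is not given in the sources used here, and its part in the absence was not tested.

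**Figure D4:**
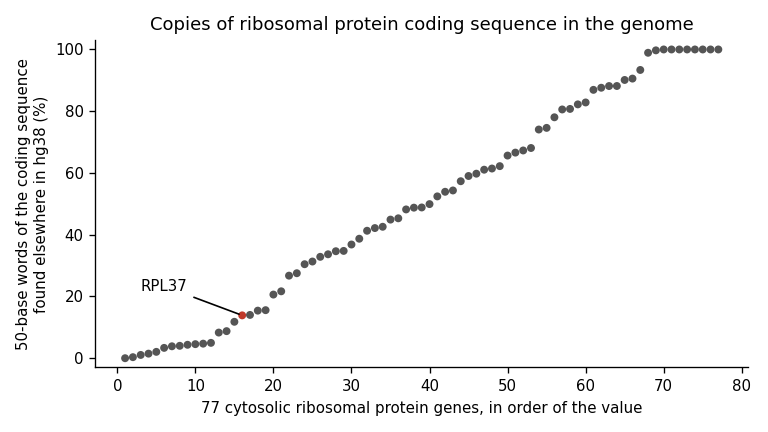
Percentage of 50-base words of the coding sequence that occur exactly elsewhere in hg38, for the 77 cytosolic ribosomal protein genes in order of the value. The values run from 0% (RPL38) to 100%, and RPL37 (red), the sole gene with a summit, stands at 13.9%.

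Some peaks lay on the copies. Of 1600 pseudogenes named after a member, 11 held a summit in replicate 1 (16 summits) and 9 in replicate 2 (9 summits), and 3 held one in both. That was 0.688% and 0.562% of them. Among processed pseudogenes alone the shares were 0.525% and 0.328%, next to 1.06% and 0.905% of processed pseudogenes not named after a member. RPL41P2 (chromosome 15, within the bounds of HERC2 but in none of its exons) had 1 summit per replicate, with folds of 3.10 (q = 0.336) and 2.53 (q = 1). The peaks (chr15:28315740-28315949 and chr15:28315702-28315746) overlapped at their ends only. Their summits lay apart, at 28315897 and 28315705. The window of 31 nt around the summit of RPL41P2 in replicate 2 (chr15:28315690-28315720, hg38, plus strand) starts before the peak. It shares 28 nt with the start of the RPL41 coding sequence, in capitals, of which the first lie outside the peak.
RPL41P2: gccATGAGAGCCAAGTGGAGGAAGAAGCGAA
Of the 25-base words in the summit and the 50 nt on either side, 77.9% in replicate 1 and 68.8% in replicate 2 were words of the RPL41 mRNA.

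The highest pseudogene peak was on RPL7P21 (chromosome 5, within NR3C1 but in none of its exons). Its fold was 4.995 in replicate 1 (q = 0.000948, chr5:143332629-143332773) and 3.02 in replicate 2 (q = 0.108, chr5:143332628-143332754). Despite its symbol, the words it shared were those of RPL7L1, a paralog that acts in ribosome assembly, at 81.8% and 74.0%. The pseudogenes RPSAP12, RPSAP54 and RPSAP47 each had 1 summit, in replicate 1 alone, with folds of 3.22, 4.12 and 3.49, and 100%, 92.2% and 97.4% of their words were words of RPSA or RPSA2. RPS27P19 (80.5% words of RPS27) and RPL4P4 (74.0% words of RPL4) had 1 summit each in replicate 2 alone. RPL13AP26, the third with a summit in both replicates, shared 0% of its words with any member. In all, 5 of 16 summits in replicate 1 and 4 of 9 in replicate 2 lay where more than 50% of words were those of a member mRNA, and 6 and 4 lay where none were. Except at RPSAP12, not all words of the window were shared, and the words are shorter than the reads, so how far reads of the mRNA and of the copy could be told apart was not tested. RPSA, RPL41, RPL4, RPS27 and RPL7L1 had no summit in their own exons.

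Other genes of the ribosome and its control were compared as counts. The 78 mitochondrial ribosomal protein genes, whose products build the ribosome of mitochondria, are longer, with a median mRNA length of 1242 nt against 785 nt and a median coding length of 588 nt against 459 nt. Of these, 9 had a summit in both replicates (11.5%) and 6 in 1 replicate. MRPS25 had 8 and 9 summits with highest folds of 6.27 and 4.52, and MRPS27 had 7 and 7 with 4.82 and 4.78. MRPL43, with a canonical mRNA of under 1000 nt, had 4 and 5 with 5.09 and 3.12. These summits were counted in exons of any transcript, so they are not shown to lie on the canonical mRNA. Over all 78 genes, 19 and 14 summits lay on canonical mRNAs in replicates 1 and 2. By mRNA length, the mitochondrial genes were counted for a summit in both replicates. There were 1 of 25 from 500 to under 1000 nt and 1 of 22 from there to under 1500 nt. From 1500 to under 3000 nt there were 4 of 19, and above that 3 of 11. The shares of all protein-coding genes in these classes were 3.51%, 5.21%, 15.7% and 46.3%. The mitochondrial coding sequences had few copies, with a median of 0% of words found elsewhere and at most 40.7%. Of the 69 with under 10%, 9 had a summit in either replicate, and of the 9 with more, 6 did. At the shares of all genes in the same classes of mRNA length, 12.3 and 2.54 would have had one.

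Most ribosomal protein mRNAs began with a pyrimidine tract. A C followed by 4 pyrimidines opened the canonical transcript of 58 of 77 genes (75.3%), 6.41% of the mitochondrial ones and 4.58% of all protein-coding genes. Among 15 other mRNAs known for a TOP tract, 2 had a summit in both replicates, EIF3E (folds 2.83 and 2.30) and PABPC1 (1.801 and 1.85). NAP1L1 had 1 in replicate 2. The median mRNA length of the 15 was 3512 nt (from 808 to 13159 nt). Of all protein-coding genes from 3000 nt upwards, 46.3% had a summit in both replicates. The elongation factor mRNAs EEF1A1, EEF1B2, EEF1D, EEF1G and EEF2 were among the 12 with none. The genes that control TOP mRNAs differed in count from the mRNAs under that control. Of 7, 5 had summits in both replicates. MTOR had 38 and 37 with highest folds of 5.52 and 5.51, LARP1 had 14 and 17 with 4.56 and 4.08, and RPS6KB1 had 12 and 13 with 3.82 and 4.55. These mRNAs are long, from 5428 to 8721 nt in the 5 with summits.

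Genes of ribosome biogenesis stood between. Of 40, 14 had a summit in both replicates (35.0%) and 7 in 1. HEATR1, needed for ribosomal RNA synthesis and processing, had 38 and 35 summits with highest folds of 7.27 and 5.82, RRP1B had 10 and 9 with 5.07 and 5.06, and the helicase gene DDX21 had 7 and 6 with 5.56 and 3.68. The median mRNA length of the 40 genes was 3319 nt. A summit in both replicates was found for 28.0% of all protein-coding genes, and for 46.3% of those from 3000 nt upwards. Over the whole canonical mRNA, summits per kb came to 0 in replicate 1 and 0.0199 in replicate 2 for the 77 ribosomal protein genes, 0.133 and 0.0979 for the mitochondrial ones, 0.867 and 0.892 for biogenesis genes and 0.570 and 0.550 for all protein-coding genes. The value for biogenesis genes pools all 40, of which 19 had no summit. Long mRNAs such as HEATR1 and MDN1 (18485 nt, 39 and 41 exonic summits) held many of theirs. A further list was drawn up after the values were seen, of 21 mRNAs known to be abundant in most cells, such as GAPDH, ACTB, TUBB, FTL, B2M and HSPA8. It had 0 of 21 genes with a summit in either replicate, with a median mRNA length of 1781 nt. Of all protein-coding genes from 1500 to under 3000 nt, 25.5% had one in either replicate. Whether mRNA level goes with the absence was not tested, since the lists hold no levels.

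**Figure D5:**
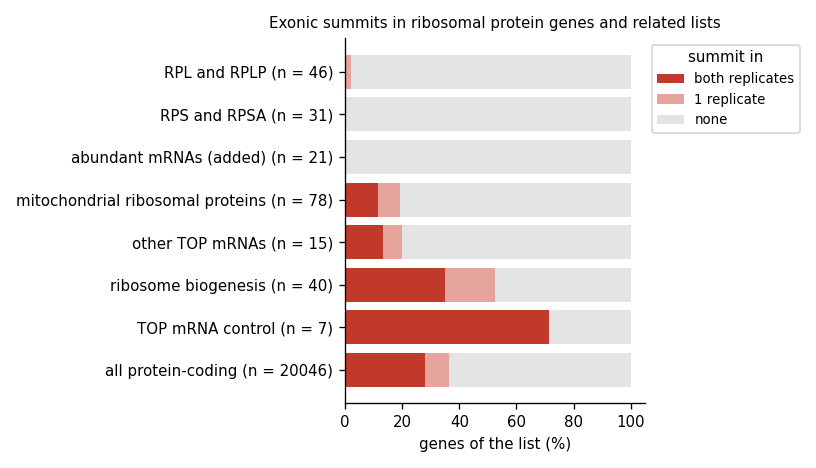
Percentage of genes with an exonic summit in both replicates (dark red), in 1 replicate (light red) or in none (grey), for cytosolic ribosomal proteins of the large (RPL and RPLP) and small (RPS and RPSA) subunit, related lists and all protein-coding genes, with the number of genes beside each name. The cytosolic lists and the abundant mRNAs lie at or near 0, and the genes of TOP mRNA control reach 71.4% in both replicates.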

How the data were processed

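The study immunoprecipitated IGF2BP3 from OE-19 cells and sequenced the RNA. Its methods name Tophat2 (to hg38) and MACS2 with default settings for these libraries, while the submitters' processing notes name fastp, HISAT2 and MACS2; versions, handling of reads with several matches and the control library are not given in the sources used here. Each deposited list, called on 1 sample, gives a fold enrichment (ratio of pileup to local background), −log10 p and −log10 q at the summit, and a score, the whole part of 10 times −log10 p. Intervals for counting error were not computed, since no file gives the read depth.

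Peaks were assigned to each GENCODE 44 gene with an exon at the summit, without strand. Positions are on the Ensembl canonical transcript, coordinates start at 1, and 13 and 12 peaks on scaffolds were left out of gene assignment. Peaks overlapping by 1 bp or more counted as shared. Copies were exact 50-base words of coding sequence on either strand outside the gene's own bounds on the assembled chromosomes of hg38. Sequences are from GENCODE 44 transcripts and hg38. All members with a summit in both replicates were to be named, those with a summit in 1 replicate by fold, the others by name, of which some are not reported here, and 3 genes per related list by mean fold. Summits of members lay in 3′ UTRs but for 1, so no summit window of a member is printed and motifs were counted in coding sequence. The members and lists were chosen with earlier results of these data known, and no test was run. Alternatives were limits on q, fold and p, other gene assignments, leaving out a replicate, and the 77 ribosomal proteins alone. The assignment code was tested on simulated data. Python 3.11.15, numpy 2.4.6, pandas 2.3.3 and matplotlib 3.10.9 were used.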

Additional observations from a re-analysis of the deposited data

Results flagged for a closer look

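Summits on exons of ribosomal protein pseudogenes, outside the member genes, numbered 16 in replicate 1 and 9 in replicate 2. They were singled out because they are signal in peaks that the counts over member mRNAs do not use, and no control sample had a peak list used here to set beside them. Summits within member genes but in no member exon numbered 11 in replicate 1 and 10 in replicate 2 and were singled out for the same reason, and all of them lay in exons of ZWILCH, DENND2B or TBC1D8.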

How the results depend on the processing

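Under the settings tried, 0 of the 77 ribosomal protein genes had a summit in both replicates, except with gene bodies, which gave 3 by overlapping genes. The share of all protein-coding genes was 28.0% in the main setting. It was 4.93% with −log10 q of at least 1.3, 17.5% with a fold of at least 3 and 20.7% with −log10 p of at least 3. Other gene assignments gave from 23.9% (coding summits) to 29.6% (gene bodies). At the limit on q, the count of 0 thus stood beside a low share of all genes. With all 92 members, 1 gene had summits in both replicates and 2 in either, with 4 summits per replicate. With −log10 q of at least 1.3 these became 0, 1 and 0.5, with 100% of peaks shared and 0.003846 summits per kb. With a fold of at least 3 the summits per replicate were 2.5 and 0.01923 per kb. With −log10 p of at least 3 they were 3 and 0.02308, with 83.33% shared. Gene bodies gave 4 genes, 5 genes and 14.5 summits, through the same overlapping genes. Summits in exons of exactly 1 gene gave 0, 1 and 1, since the readthrough gene drops out. Peaks that touch an exon anywhere gave 4.5 per replicate and added RPL27A. The 77 ribosomal proteins alone gave 0 and 1, and so did coding summits, an alternative added after the data were seen. Requiring 50% of both peaks to overlap left 0% shared, where the main share was 62.5%. Single replicates gave from 1 to 2 genes with a summit. Of 53 values under alternatives, 30 kept within the spread of the replicates or 1.5 times the count. With so few summits the share in the coding sequence, 12.5%, rests on 1 of 8. No paired analysis was possible because the inputs had no peak list used here and no groups were tested.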
